A study of Homo sapiens with 5 samples.

Results

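Long noncoding RNAs that have been linked to cancer were followed in RNA of NCI-H1975 and HCC827, a pair of established human lines derived from adenocarcinoma of the lung. The 10 genes were MALAT1, NEAT1, UCA1, CASC9, PVT1, CCAT1, LUCAT1, MIR31HG, H19 and MEG3, chosen by name, with earlier results of these data known. Every transcript identifier that GENCODE v44, a human gene annotation, places in one of these genes was taken from the deposited tables, and its reads were added up per gene. Of the 10 genes, 9 had transcripts in the tables, 8 had at least 1 read, and 7 had enough reads to be tested, among 61220 genes in all, of which 13492 were tested.

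The samples form a mixture series. Each line was grown in culture, with no drug or other agent named in the labels, poly(A) RNA was isolated from it, and the RNA of NCI-H1975 carried the synthetic spike-in mix A while that of HCC827 was labelled as carrying mix B. The mass share of HCC827 RNA was 0, 25, 50, 75 or 100%, and libraries are named by the mass ratio of NCI-H1975 to HCC827, so that 100:0 is pure NCI-H1975 and 0:100 is pure HCC827. Each ratio had 1 library, made by PCR from cDNA with size selection for about 2 kb, and sequenced on a nanopore PromethION flow cell. The sample titles do not say whether the RNA of a line came from 1 preparation. No ratio had a second library, so errors and p-values do not describe scatter among cultures. They describe departures of libraries from a fitted line, which may be technical or a misfit of that line.

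A long noncoding RNA is a transcript that is spliced or polyadenylated much like a messenger RNA but is not known to be translated. MALAT1 and NEAT1 stay in the nucleus: MALAT1 sits in nuclear speckles, which hold splicing factors, and the long form of NEAT1 is the scaffold around which paraspeckles assemble. The mature 3′ ends of MALAT1 and of long NEAT1 are cut by RNase P and protected by a triple helix in place of a poly(A) tail, whereas short NEAT1 ends at a poly(A) site. UCA1, CASC9, CCAT1 and LUCAT1 were named for the cancers in which they were found, PVT1 lies next to the MYC oncogene, MIR31HG is the host gene of the microRNA miR-31, and H19 and MEG3 are imprinted genes expressed from the maternal chromosome.

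Library totals ran from 2932250 reads (100:0) to 4058751 reads (75:25), so that 1 read stood for 0.247 to 0.342 counts per 1000000 reads (CPM). The lung epithelial list (EPCAM, keratins, NKX2-1, NAPSA and others) had reads in every library for 10 of 10 genes, with a summed level from 6559 CPM in 100:0 to 14076 in 0:100. Of 10 markers of immune, endothelial, stromal and muscle cells, 4 (PTPRC, CD3E, LYZ and DCN) were at 0 reads throughout. Their summed level was 188 CPM in 100:0 and 7.44 in 0:100 and was mostly COL1A1, a collagen chain, with 532 reads in 100:0 and 19 in 0:100. The part of these markers in the results on the noncoding RNAs was not tested. Spike-in reads fell along the series, with 5475 in 100:0, 4678 in 75:25, 2830 in 50:50 and 1269 in 25:75. Whether any of them came with HCC827 RNA was not tested. The 0:100 library had 0 spike-in reads, against its label, which names mix B. Without that library the fitted log2 slopes described below were 2.11 for MALAT1, 1.86 for NEAT1, 2.40 for UCA1, 4.14 for CASC9, −0.81 for PVT1 and 0.26 for LUCAT1, and 5 of these genes were still called.

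The 10 genes together took a growing share of the reads from the NCI-H1975 end to the HCC827 end. They held 1586 reads in 100:0, 3696 in 75:25, 4435 in 50:50, 3868 in 25:75 and 4441 in 0:100, which were 0.0542, 0.0912, 0.114, 0.126 and 0.144% of human reads. Reads of all long noncoding RNA genes moved the other way, from 2.36% of human reads in 100:0 to 1.93% in 0:100. MALAT1 alone made up 68.9 to 73.9% of the reads of the 10 genes in each library, so the summed share is mostly a MALAT1 value.

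Along the series, 4 of the 7 tested genes rose with HCC827 (MALAT1, NEAT1, UCA1 and CASC9), 1 fell (PVT1) and 2 did not pass the test (LUCAT1 and MIR31HG). A gene was tested once 2 or more libraries had 10 or more reads of it, and its slope is the fitted log2 change from 0 to 100% HCC827, with counts scaled by TMM, a method that sets the bulk of genes equal between libraries. Calls have an adjusted p under 0.05 in the edgeR quasi-likelihood test with Benjamini-Hochberg adjustment over all genes. Calls were common across the transcriptome: 45.8% of the 13492 genes tested were called, 23.5% rising and 22.3% falling, and 34.2% of 1238 long noncoding RNA genes were called, 15.9% rising and 18.3% falling. The median slope of the 7 genes was 1.76, beside −0.03 over all genes and −0.14 over long noncoding RNA genes. Scaling by library totals moved the median over all genes to −0.44, and rising genes then made up 26.2% of all calls instead of 51.3%. Under that scaling the same split of 4 rising and 1 falling was found among the 10 genes, while the slope of LUCAT1 turned from 0.36 to −0.04. Because mixing adds levels and not logarithms, a slope is smaller than the log2 ratio of the pure lines where a gene is nearly absent from 1 of them. The levels of such a gene also bend away from a straight line in log2, so its error and p-value hold that misfit as well as scatter.

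**Figure D1:**
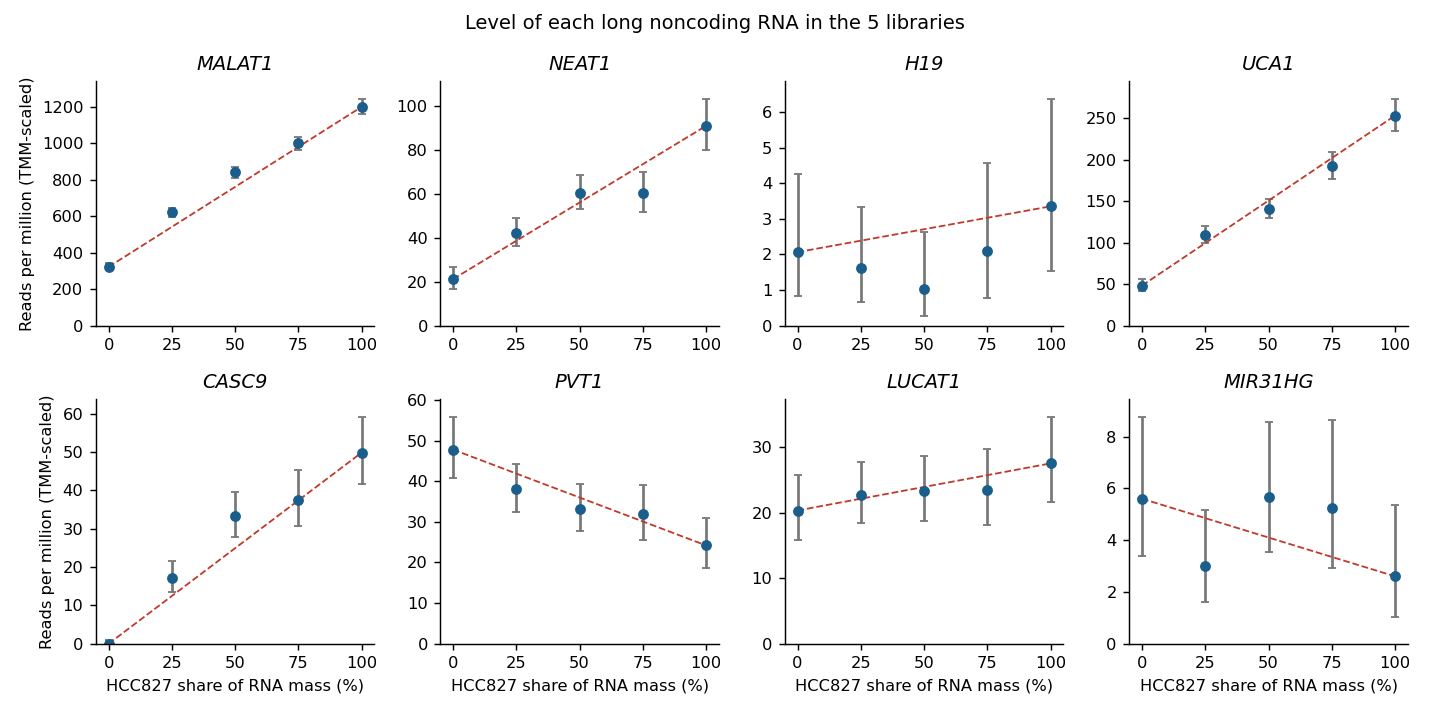
CPM (reads scaled by TMM, linear axis from 0) of the 8 genes with reads, against the HCC827 share of RNA mass in percent. Points are single libraries, bars are exact Poisson intervals of the read count (95%, counting error only), and the dashed line joins the pure libraries: MALAT1 climbs from 322 to 1201 and PVT1 drops from 47.8 to 24.2, while H19 and MIR31HG have wide bars on few reads.

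Per base of transcript, the order of the genes differed between the lines. On the TPM scale (reads divided by transcript length, scaled to the same sum in every library), the 100:0 library had MALAT1 at 129, PVT1 at 52.7, UCA1 at 49.2, LUCAT1 at 23.1, MIR31HG at 3.21, NEAT1 at 2.46, H19 at 2.45 and CASC9 at 0. The 0:100 library had MALAT1 at 249.6, UCA1 at 159, CASC9 at 29.9, LUCAT1 at 18.3, PVT1 at 17.9, NEAT1 at 4.31, H19 at 2.07 and MIR31HG at 0.894. On this scale PVT1 was thus the second of these genes in NCI-H1975 RNA and the fifth in HCC827 RNA, and CASC9 went from the last to the third. These ranks depend on the division by length. Whether reads of this size-selected cDNA grow with transcript length was not tested, so the division may not suit them. By CPM of library totals in 100:0, UCA1 at 56.0 and PVT1 at 55.4 came before NEAT1 at 24.6 and LUCAT1 at 23.6. In 0:100, NEAT1 at 79.2 stood above CASC9 at 43.3 on that scale, with LUCAT1 at 23.9 and PVT1 at 21.0. PVT1 and UCA1 in 100:0 rested on 162 and 164 reads, and LUCAT1 and PVT1 in 0:100 on 74 and 65 reads, so neither pair can be ordered beyond counting error. For NEAT1, most reads were divided by the 22743 bases of its longest transcript.

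MALAT1 (ENSG00000251562) lies on chromosome 11 at chr11:65497640-65508073, plus strand, and had the most reads of the 10 genes. Its reads were 1093 in 100:0, 2683 in 75:25, 3274 in 50:50, 2857 in 25:75 and 3226 in 0:100. Scaled by TMM these were 322, 622, 841, 999 and 1201 CPM, so each step towards HCC827 was higher than the one before. The level in pure HCC827 was 3.73-fold that in pure NCI-H1975 (exact conditional interval 3.48 to 3.99, counting error only). Its slope was 1.76 ± 0.20 (SE) with an adjusted p of 2.18e-05 in the edgeR quasi-likelihood test.

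Reads of MALAT1 fell on few transcripts, and all of those tested moved together. The tables held 16 of the 66 MALAT1 models of GENCODE v44, and 15 of them had reads. MALAT1-202, the unspliced transcript, had 515, 1328, 1553, 1375 and 1582 reads in mixture order, and MALAT1-214, a spliced one, had 502, 1228, 1564, 1331 and 1497. These 2 transcripts took 95.0% of the reads. They rose by the same slope to 2 decimals, 1.72 ± 0.19 in each case, and 5 of 5 tested MALAT1 transcripts rose, beside 33.6% of 31758 transcripts called in either direction. The deposited lengths, 8708 bases for MALAT1-202 and 5340 for MALAT1-214, differ from the 10434 and 4227 of GENCODE v44, so these lengths do not come from that release, and no 3′ end sequence is given for them here. How reads shared by these overlapping transcripts were divided cannot be seen in the tables.

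NEAT1 (ENSG00000245532) lies on the same arm at chr11:65422774-65445540, plus strand. It had 72 reads in 100:0, 183 in 75:25, 236 in 50:50, 173 in 25:75 and 245 in 0:100, or 21.2, 42.4, 60.6, 60.5 and 91.2 CPM after TMM scaling. The 50:50 and 25:75 libraries were level, and pure HCC827 stood above both. Between the pure libraries the difference was 4.29-fold (interval 3.29 to 5.67), and the slope was 1.76 ± 0.24 (edgeR quasi-likelihood test, adjusted p = 6.99e-05).

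Most NEAT1 reads were assigned to the long form, the one that builds paraspeckles. NEAT1-202, a single exon of 22743 bases, had 60, 170, 220, 157 and 234 reads, which were 92.5% of the NEAT1 reads over the 5 libraries. It rose with a slope of 1.81 ± 0.24 (edgeR quasi-likelihood test over transcripts, adjusted p = 1.35e-05). Transcripts that end at the short form's site, between chr11:65426457-65426513, had 11, 7, 11, 15 and 9 reads, with no transcript among them reaching the filter. The long form's share of NEAT1 reads was 83.3% in 100:0 and 90.8 to 95.5% in the others. Short and long NEAT1 share their 5′ part, and the cDNA was size-selected for about 2 kb, so an assigned read does not show a full-length molecule.

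The sequences show what the 2 NEAT1 ends look like, since the libraries were made from RNA caught by its poly(A) tail. The last 60 bases of each transcript are given 5′ to 3′ (GENCODE v44, GRCh38), and neither has the polyadenylation signals AATAAA or ATTAAA in its last 50 bases. This does not hold for every short transcript. A short transcript that ends at chr11:65426513, with 12 reads, has AATAAA in its last 50 bases. Another that ends at chr11:65426499, with 14 reads, has neither signal there. The sequence marked as inside is a stretch inside NEAT1-202, at chr11:65440823-65440884 on the plus strand, with its longest run of A in capitals.
NEAT1-202: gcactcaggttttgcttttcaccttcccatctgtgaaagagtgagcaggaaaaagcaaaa
NEAT1-201: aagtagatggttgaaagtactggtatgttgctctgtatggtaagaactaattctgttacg
NEAT1-202 inside: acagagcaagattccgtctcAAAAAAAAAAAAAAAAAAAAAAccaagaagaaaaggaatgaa
The run is 22 A long and starts at base 18046 of the transcript, which has 5 runs of at least 10 A. Among 5945 transcripts of at least 5000 bases with at least 10 reads, the median longest run of A was 8, and 5.00% had one of 22 or longer. Whether reads of NEAT1 started at such runs was not tested.

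A list of 7 RNAs that lack a poly(A) tail was read beside them. They are short, and the labels name a size selection, so the part of length and that of the missing tail in their counts cannot be told apart, and they set no level for long RNAs such as MALAT1 and NEAT1. Of the 7, RN7SL1, the RNA of the signal recognition particle, had 14, 15, 10, 5 and 19 reads and was the only one tested, with a slope of 0.51 ± 0.71 (edgeR quasi-likelihood test, adjusted p = 0.583). TERC, the telomerase RNA, had 21 reads over the 5 libraries and RN7SL2 had 12. RMRP had 0, and RN7SK, RPPH1 and SCARNA2 had 8, 4 and 1.

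UCA1 (ENSG00000214049), at chr19:15828206-15836328 on the plus strand, rose most steeply of the genes that had reads in every library. Its reads were 164, 474, 549, 552 and 681 in mixture order, or 48.4, 110, 141, 193 and 253 CPM after TMM scaling. Every library stood above the previous one. Pure HCC827 had 5.24-fold the level of pure NCI-H1975 (interval 4.41 to 6.25), with a slope of 2.13 ± 0.20 and an adjusted p of 7.77e-06 in the edgeR quasi-likelihood test.

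UCA1 reads were spread over many transcripts. Of 45 UCA1 transcripts in the tables, 44 had reads, and the largest, UCA1-213, held 7.93% of them. Of 21 tested, 18 rose and 0 fell, beside 33.6% of 31758 transcripts called in either direction. All 21 slopes were above 0, from 0.81 for UCA1-202 to 2.72 for UCA1-237. These transcripts overlap and sum to the gene, so their directions are not separate from that of the gene. How reads that they share were divided cannot be seen in the tables. Grouped by annotated 3′ end, 26 transcripts that end at chr19:15835415-15835420 held 42.3% of the reads, and 8 that end at chr19:15836303-15836328 held 32.6%. The first group had 42.1% of UCA1 reads in 100:0 and 39.5% in 0:100, and the second had 34.2% and 33.0%. Both ends thus had reads in both pure libraries, in similar shares.

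The last 60 bases at these 2 main UCA1 ends (GENCODE v44, GRCh38, 5′ to 3′) are shown because they differ in having the polyadenylation signal ATTAAA, which is in capitals. Only AATAAA and ATTAAA were searched, and other forms of the signal were not.
UCA1-227: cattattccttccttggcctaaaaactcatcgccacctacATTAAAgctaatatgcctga
UCA1-213: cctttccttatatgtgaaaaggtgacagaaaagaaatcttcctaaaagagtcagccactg
In UCA1-227 the signal starts 20 bases before the end. UCA1-213 has neither AATAAA nor ATTAAA in its last 50 bases, searched on the transcript's own strand. Over the 72 transcripts of the 10 genes with at least 10 reads and the same length as in GENCODE v44, 39 (54.2%) had 1 of these signals there, beside 64.0% of 45468 such transcripts of all genes and 52.8% of 3515 of long noncoding RNA genes.

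CASC9 (ENSG00000249395), at chr8:75120409-75352327 on the minus strand, was not seen in pure NCI-H1975 RNA. Its reads were 0 in 100:0, 74 in 75:25, 130 in 50:50, 107 in 25:75 and 134 in 0:100, or 0, 17.2, 33.4, 37.4 and 49.9 CPM after TMM scaling. A count of 0 allows up to 3 reads, here 0.885 CPM on the same scale, and the level in pure HCC827 was 56.4-fold above that limit. With the counting error of both libraries, the exact binomial interval of the ratio starts at 45.2-fold. The slope was 3.03 ± 0.67 (edgeR quasi-likelihood test, adjusted p = 0.00266). It was 1.84 without the 100:0 library, and the DESeq2 Wald test gave 4.50 with an adjusted p of 0.162, so the call does not hold in that test. CASC9-206 and CASC9-207 share an end at chr8:75223127 and held 74.6% of the reads. The 4 tested CASC9 transcripts were called rising, beside 33.6% of 31758 transcripts called in either direction. Each had 0 reads in 100:0 and passed the filter through libraries with HCC827, so their direction adds nothing to the call of the gene.

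PVT1 (ENSG00000249859), at chr8:127794526-128187101 on the plus strand, was the 1 gene of the 10 that fell. It had 162, 164, 129, 91 and 65 reads in mixture order, or 47.8, 38.0, 33.1, 31.8 and 24.2 CPM after TMM scaling. Each library was lower than the one before, with 50:50 and 25:75 nearly level. Pure NCI-H1975 had 1.97-fold the level of pure HCC827 (interval 1.47 to 2.68), and the slope was −0.88 ± 0.19 (edgeR quasi-likelihood test, adjusted p = 0.00245). Leaving out 1 library at a time kept the call, with the highest adjusted p, 0.0448, without 100:0.

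PVT1 reads were the most divided among transcripts. Of 176 transcripts in the tables, 151 had reads, none took more than 3.93% of the total, and 0 passed the filter for a test. Their annotated ends fell into 2 main places: 28 transcripts that end at chr8:127932696-127932720 held 39.3% of the reads, and 82 that end at chr8:128101247-128101256 held 37.2%. The first place had 57 reads in 100:0 and 25 in 0:100, and the second had 71 and 22, so reads at both places were fewer in HCC827.

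CCAT1 has no gene of that name in GENCODE v44 and so no transcript under the rule used here. RefSeq places it at chr8:127207382-127219268, inside the GENCODE gene CASC19 (chr8:127072694-127227541, minus strand). CASC19 had 0 reads in 100:0, then 13, 28, 15 and 25. Its slope was 2.76 ± 0.83 (edgeR quasi-likelihood test, adjusted p = 0.0157), and how many of these reads come from CCAT1 was not tested.

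LUCAT1 (ENSG00000248323), at chr5:91054834-91314547 on the minus strand, is known as a target of NRF2, the transcription factor of the oxidative stress response. It had 69, 98, 91, 67 and 74 reads, or 20.3, 22.7, 23.4, 23.4 and 27.5 CPM after TMM scaling. By library totals the values were 23.6, 24.2, 23.5, 21.8 and 23.9 CPM, with no order. The slope was 0.36 ± 0.22 (edgeR quasi-likelihood test, adjusted p = 0.201), and the ratio of pure HCC827 to pure NCI-H1975 was 1.35 (interval 0.962 to 1.91). An equal level and a rise of up to 1.91-fold both lie in that interval. Of 61 transcripts listed, 44 had reads, 3 were tested and 0 were called.

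The promoter of LUCAT1 is shown because LUCAT1 is known as an NRF2 target and the sequence holds the core of an antioxidant response element, the kind of site NRF2 binds. It is the RefSeq sequence from 250 bases before to 50 after the start, at chr5:91314353-91314652 on the minus strand (GRCh38.p14), 5′ to 3′, with the site in capitals.
LUCAT1: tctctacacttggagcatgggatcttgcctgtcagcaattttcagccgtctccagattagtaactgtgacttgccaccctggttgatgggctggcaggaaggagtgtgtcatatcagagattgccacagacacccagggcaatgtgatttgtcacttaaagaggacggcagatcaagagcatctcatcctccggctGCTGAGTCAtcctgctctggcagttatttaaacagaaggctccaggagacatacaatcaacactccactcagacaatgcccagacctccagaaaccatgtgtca
The core was searched as TGACNNNGC on both strands and matched the reverse strand, starting 54 bases before the start site. The match overlaps 1 to the AP-1 motif TGANTCA. Among 34796 RefSeq promoters of this length, 13.3% held TGACNNNGC and 7.73% held TGANTCA, so a match is common and is a description of letters, not of binding. Of the 10 genes, 5 had a RefSeq promoter sequence. The core is not particular to LUCAT1 among them: 1 of the 2 MALAT1 promoters (chr11:65497488-65497787, plus strand) held 2 matches.

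Messenger RNAs of 9 NRF2 targets did not share a direction between the lines. Of 8 tested, 2 rose, 3 fell and 3 did not pass the test, with AKR1C1 not tested. HMOX1, which degrades heme, had 429, 415, 257, 128 and 32 reads and fell by 2.68 ± 0.30 on the log2 scale (edgeR quasi-likelihood test, adjusted p = 2.08e-05). SLC7A11, the cystine importer, and SRXN1, sulfiredoxin, fell by 1.29 and 0.82. NQO1, a quinone reductase, had 623, 917, 952, 827 and 841 reads and rose by 0.79 ± 0.11 (adjusted p = 0.000129 in the same edgeR test). TXNRD1, a thioredoxin reductase, rose by 0.44, a call that was lost when library totals were used for scaling, with a slope of 0.03. GCLC, GCLM and AKR1B10 had slopes of 0.03, 0.13 and 0.07 and were not called, and by library totals these slopes were −0.38, −0.28 and −0.34.

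MIR31HG (ENSG00000171889), at chr9:21380073-21559891 on the minus strand, was low in every library. It had 19, 13, 22, 15 and 7 reads, or 5.60, 3.01, 5.65, 5.25 and 2.61 CPM after TMM scaling, with no order along the series. The slope was −0.43 ± 0.62 (edgeR quasi-likelihood test, adjusted p = 0.602), and it was 0.22 without the 0:100 library. Pure NCI-H1975 over pure HCC827 gave 2.15, with an interval of 0.866 to 6.05, which spans an equal level, so a difference was not detectable at this depth. MIR31HG-201 held 32.9% of the reads. It is shown by its last 60 bases (GENCODE v44, GRCh38), which have neither AATAAA nor ATTAAA.
MIR31HG-201: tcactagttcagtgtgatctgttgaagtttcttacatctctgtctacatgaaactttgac

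The imprinted genes were at or near the limit of detection in both lines. H19 (ENSG00000130600, chr11:1995166-2004552, minus strand) had 7, 7, 4, 6 and 9 reads, or 1.03 to 3.35 CPM after TMM scaling, and did not pass the filter. Without a filter its slope was 0.74 ± 0.87 (edgeR quasi-likelihood test, adjusted p = 0.636). MEG3 (ENSG00000214548, chr14:100779410-100861031, plus strand) had 0 reads in 5 of 5 libraries over its 50 transcripts, which allows up to 0.696 to 1.12 CPM on the same scale. MEG8 and MEG9, listed from the same imprinted region, had 2 reads and 0.

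Where several transcripts of a gene could be tested, the mix of transcripts showed no detected change. MALAT1 with 5 tested transcripts, UCA1 with 21, CASC9 with 4 and LUCAT1 with 3 each had an adjusted p of 1 for transcript usage (edgeR diffSpliceDGE with Simes p-values, Benjamini-Hochberg over 7455 genes). Such calls were rare, at 0.402% of those genes. The mean length of the assigned transcripts, weighted by reads, had no trend past the test in the 5 genes with at least 50 reads per library. With 120 orders, 1 gene alone could reach no adjusted p under 0.0833, so this test says little about a trend in a single gene. For MALAT1 it was 6593, 6781, 6709, 6711 and 6774 bases in mixture order (two-sided exact permutation test over 120 orders, p = 0.317, adjusted 0.396). For NEAT1 it went from 19519 to 21874 bases (exact permutation p = 0.133, adjusted 0.396). UCA1 went from 1533 to 1580 bases, LUCAT1 from 1306 to 1450 and PVT1 from 1338 to 1288, with adjusted exact permutation p-values of 0.396, 0.396 and 0.633. Over all human reads the mean length fell from 2581 to 2180 bases, with the smallest p that 120 orders allow, 0.0167.

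**Figure D2:**
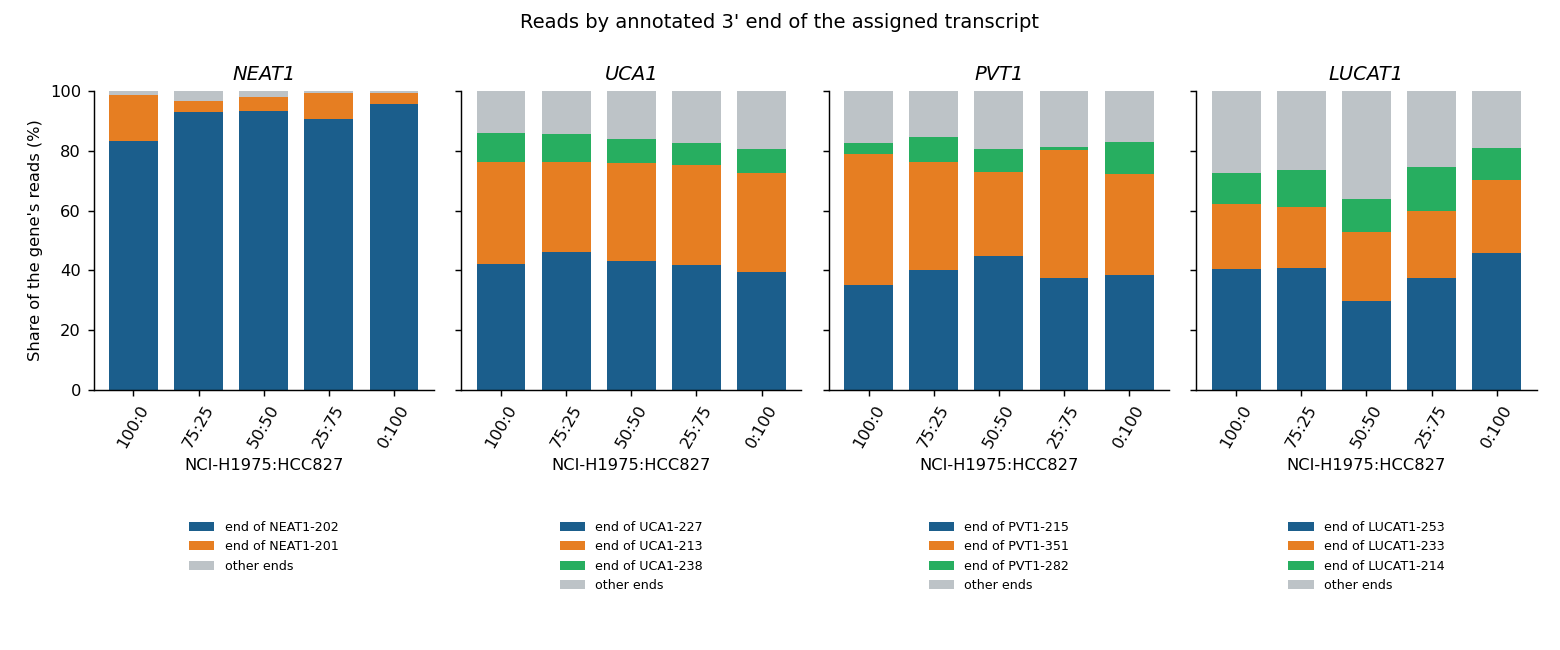
Share of reads in percent by annotated 3′ end of the assigned transcript, for NEAT1, UCA1, PVT1 and LUCAT1 in the 5 libraries (bars stack to 100). Colours are groups of transcripts that end within 50 bases of each other, named by the transcript with most reads: NEAT1-202 takes 83.3 to 95.5% of NEAT1 reads, and the 2 main ends of UCA1 keep similar shares along the series.

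The mixed libraries were then compared with the straight line between the pure ones, which gives each gene an expected read number. Intervals here cover the observed count only and take the expected number as free of error. At the nominal mass shares, MALAT1 had 1.22 times the expected reads in 75:25 (exact Poisson interval 1.18 to 1.27), 1.19 in 50:50 and 1.06 in 25:75. CASC9 had 1.69 (1.32 to 2.11), 1.55 and 1.07, and UCA1 had 1.20 (1.10 to 1.32), 1.03 and 1.00. NEAT1 was above the line in 75:25 and 50:50, at 1.18 and 1.17, and below it in 25:75, at 0.858. Among 5290 genes with at least 500 reads, the interval lay wholly above 1 for 13.6% in 75:25 and 11.5% in each of 50:50 and 25:75, and wholly below 1 for 15.2% in 25:75.

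Part of this excess went with the share of HCC827 reads, which was larger than the mass share. Estimated from 10019 genes, HCC827 supplied 32.7% of the reads in 75:25, 55.4% in 50:50 and 78.2% in 25:75. With these shares MALAT1 had 1.12 (1.07 to 1.16), 1.13 (1.10 to 1.17) and 1.04 times the expected reads. CASC9 had 1.29 (1.01 to 1.62), 1.40 (1.17 to 1.66) and 1.03. For UCA1 the values were 1.07, 0.963 and 0.974, each with an interval that holds 1. For NEAT1 the interval held 1 in 75:25 (1.06, 0.915 to 1.23) and 50:50 (1.11, 0.973 to 1.26), and lay below 1 in 25:75 (0.836, 0.716 to 0.970). Each interval of PVT1 (0.917, 0.916 and 1.04) and LUCAT1 (1.02, 0.988 and 0.913) held 1. The pure libraries had 72 and 245 reads of NEAT1 and 0 and 134 of CASC9, a counting error that these intervals leave out. A departure beyond the counting error of all libraries was thus not tested. By the estimated shares, 13.3, 12.1 and 12.3% of the 5290 genes were wholly above 1 in the 3 mixed libraries.

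**Figure D3:**
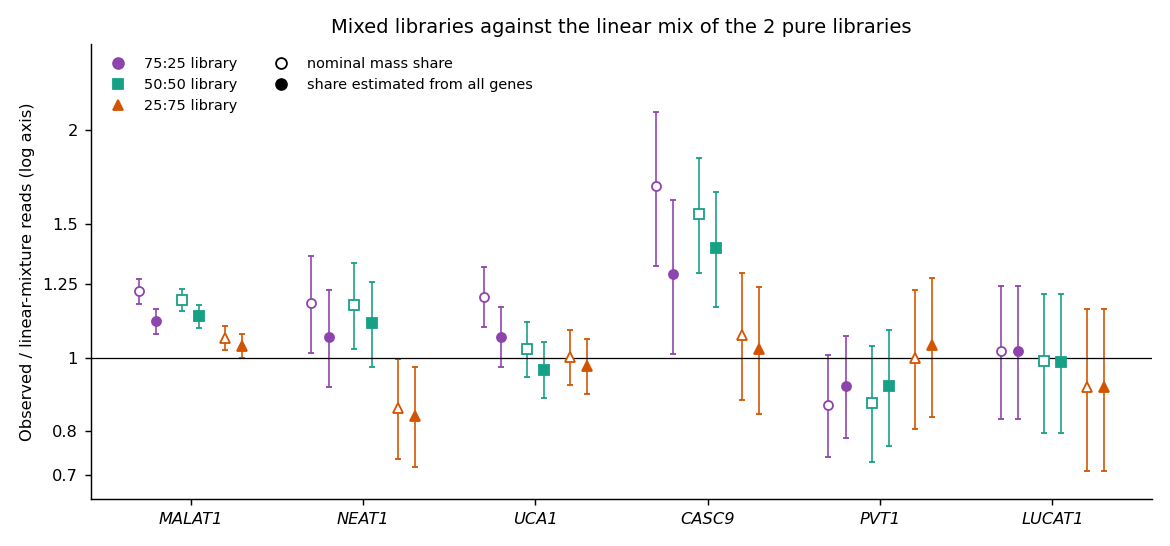
Observed reads divided by those expected from a linear mix of the pure libraries (log axis), for 6 genes in the 3 mixed libraries. Open symbols use nominal mass shares and filled ones the shares estimated from all genes, with exact Poisson intervals of the observed count (95%, counting error only): CASC9 in 50:50 stays at 1.40 and MALAT1 at 1.13 after the change of shares, while PVT1 and LUCAT1 hold 1 in their intervals.

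The genes nearest to each noncoding RNA were read from the same fit, to show how its surroundings moved. They were the 3 genes that overlap 1 of the 10 and have at least 10 reads, and the nearest tested gene on each side among those reported, 19 genes in all. Of 17 tested, 5 rose, 4 fell and 8 were not called, beside 23.5% rising and 22.3% falling of the 13492 genes tested. Counts this near the shares over all genes say nothing particular about these loci. With library totals the count was 3 rising and 5 falling, with the calls of HNF4G and KLHL9 lost and FRMD8 called falling. Differences between a noncoding RNA and its neighbour were not tested.

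On chromosome 11, a long noncoding RNA gene between NEAT1 and MALAT1 fell while both rose. ENSG00000291174 (chr11:65455257-65466720, plus strand) starts 9.72 kb after NEAT1 and ends 30.9 kb before MALAT1. It had 214, 189, 155, 85 and 27 reads and fell by 1.99 ± 0.30 (edgeR quasi-likelihood test, adjusted p = 0.000185). On the outer side, FRMD8 next to NEAT1 had a slope of −0.74 and was not called.

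Next to CASC9 both neighbours rose. ENSG00000253706, a long noncoding RNA gene 253 kb away, had 0, 45, 58, 54 and 75 reads and rose by 2.93 ± 0.65 (edgeR quasi-likelihood test, adjusted p = 0.00265). HNF4G, a nuclear receptor of gut epithelium 55.6 kb away, had 4, 27, 35, 31 and 25 reads and rose by 1.84 ± 0.61 (adjusted p = 0.0250, edgeR), a call lost with library totals (adjusted p = 0.0639).

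MYC, 51.6 kb from PVT1, was not called. It had 352, 558, 497, 374 and 350 reads, or 104, 129, 128, 131 and 130 CPM after TMM scaling. Its slope was 0.26 ± 0.14 (edgeR quasi-likelihood test, adjusted p = 0.146) and −0.15 with library totals. GSDMC, the nearest tested gene on the other side but 1561 kb from PVT1, had a slope of 1.38 and was not called.

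The other loci gave mixed neighbours. MTAP, a methionine salvage enzyme 243 kb from MIR31HG, rose by 1.54 ± 0.19 and KLHL9 by 1.06 ± 0.30 (adjusted p = 3.87e-05 and 0.0106, edgeR), while MIR31HG was not called. TPM4, a tropomyosin 231 kb from UCA1, fell by 1.63 ± 0.14 (adjusted p = 4.29e-06, edgeR), opposite to UCA1. WIZ, 378 kb from UCA1 on the other side, had a slope of 0.18. LYSMD3, 525 kb from LUCAT1, fell by 1.27, and ARRDC3 and ADGRV1 were not called. MRPL23, 10.6 kb from H19, rose by 1.01, and ASCL2, 264 kb from H19, was not called. LINC00524, 545 kb from MEG3, fell by 2.90, and WDR25, 249 kb from MEG3, had a slope of 0.01. Overlapping genes were low beside their partners: LINC01764, on the strand opposite UCA1, had 15 reads in all, and ENSG00000278217, inside MALAT1, had 10. ADGRV1, opposite LUCAT1, had 142. Whether counting used the strand is not stated, so reads of such pairs cannot be told apart.

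**Figure D4:**
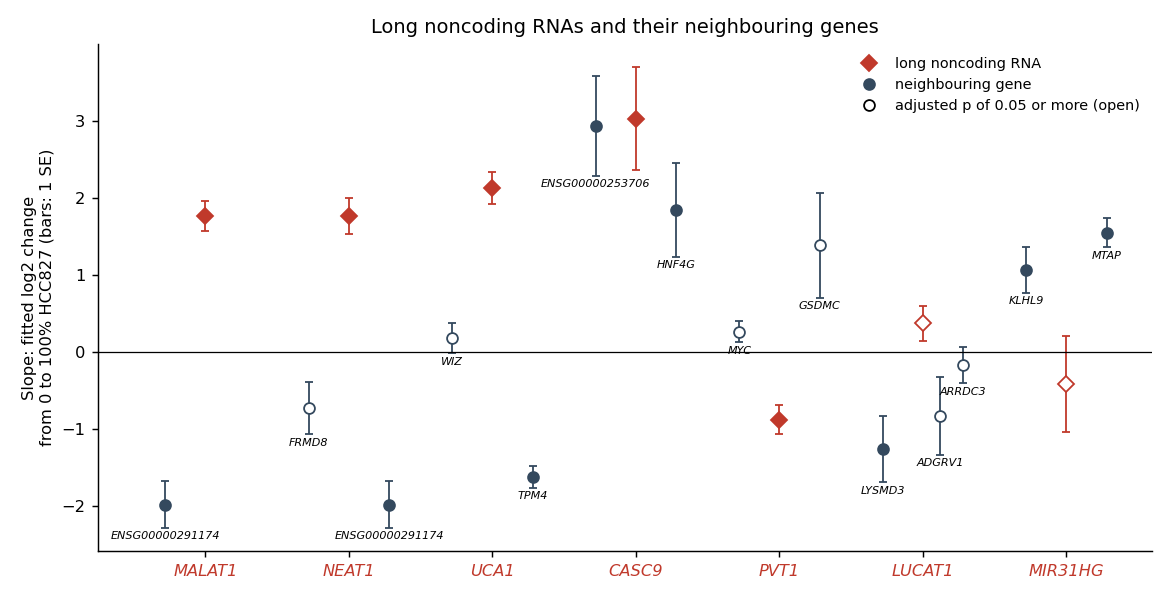
Slopes (fitted log2 change from 0 to 100% HCC827, bars 1 SE) of 7 noncoding RNAs, as diamonds, and of the tested neighbours reported, as circles. Filled symbols have an adjusted p under 0.05: ENSG00000291174, between NEAT1 and MALAT1, lies at −1.99, and MYC stands at 0.26 beside PVT1 at −0.88.

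A wider list of 69 other noncoding RNAs described in cancer shows how common such differences are. Of these, 67 were listed and 44 were tested, of which 10 rose, 10 fell and 24 were not called. The share called, 45.5%, is near the 45.8% of all genes and above the 34.2% of long noncoding RNA genes. Its median slope was 0.22, and with library totals it was −0.19, with 7 rising and 17 falling.

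The steepest rises on that list were in genes with few or no reads in NCI-H1975, which goes with ranking by log2 slope and is not a separate result. HOTAIRM1, from the HOXA cluster, had 0, 45, 81, 96 and 106 reads, in pure HCC827 44.6-fold above the limit of 3 reads (the exact interval of the ratio starts at 35.6-fold), with a slope of 3.48 ± 0.62 (edgeR quasi-likelihood test, adjusted p = 0.000595). PCAT1, from the gene-poor region upstream of MYC that also holds CASC19, had 2, 13, 24, 31 and 35 reads and a slope of 3.33 ± 0.56 (adjusted p = 0.000387, edgeR). FOXD2-AS1 rose by 2.54 on at most 13 reads per library. FIRRE rose by 1.76 with an adjusted p of 0.0468 in the edgeR test and 0.108 with library totals.

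Among the falling genes of the list, PCAT7 had 62, 64, 23, 8 and 1 reads and fell by 3.99 ± 0.55 (edgeR quasi-likelihood test, adjusted p = 8.52e-05). CRNDE, named for colorectal neoplasia, had 152, 120, 94, 47 and 32 reads and fell by 1.83 ± 0.23 (adjusted p = 5.23e-05, edgeR). TINCR, a gene of keratinocyte differentiation that GENCODE v44 types as protein coding, fell by 2.23. MIR210HG, host of the hypoxia microRNA miR-210, fell by 1.94, and MIR100HG fell by 1.22.

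The 3 genes of the list with most reads were ZFAS1, GAS5 and MIR4435-2HG. GAS5, a host of small nucleolar RNAs, had 832, 1265, 1295, 1314 and 1365 reads and rose by 1.10 ± 0.12 (edgeR quasi-likelihood test, adjusted p = 1.91e-05). ZFAS1, another such host, had 1320, 1532, 1475, 1076 and 828 reads, with a slope of −0.23 that was not called, though library totals gave −0.64 and a call. MIR4435-2HG had a slope of 0.04 (−0.37 and called with library totals). It is nearly identical to CYTOR, which rose by 0.83, and reads of that pair may have been split by the counting.

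**Figure D5:**
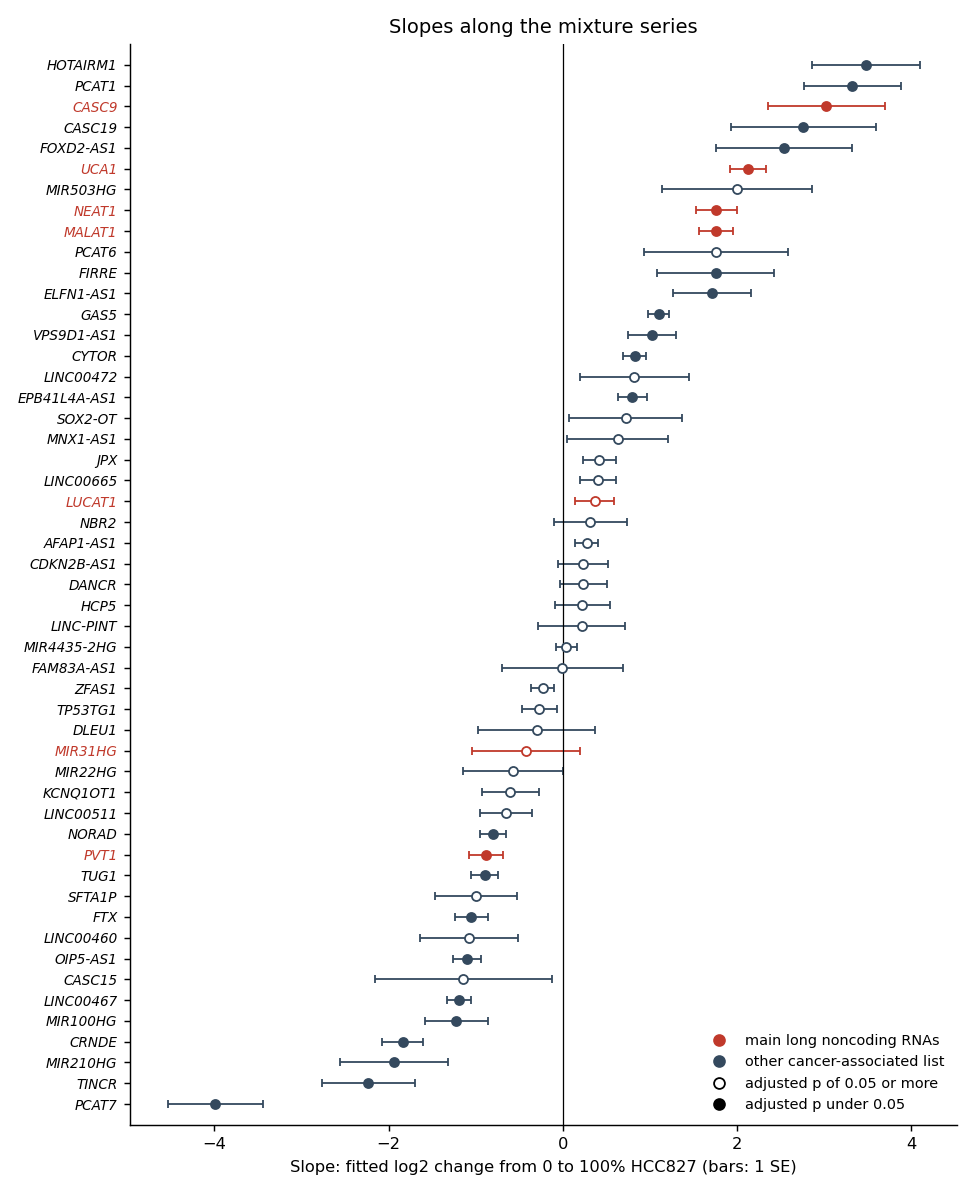
Slopes (fitted log2 change from 0 to 100% HCC827, bars 1 SE) of the 7 tested main genes, in red, and of 44 other cancer-associated noncoding RNAs, in dark blue, sorted by slope. Filled symbols have an adjusted p under 0.05: CASC9 at 3.03, UCA1 at 2.13, NEAT1 and MALAT1 at 1.76 lie among the rising genes, and PVT1 at −0.88 among the falling ones.

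For the 4 genes with the largest slopes, the long noncoding RNA gene with the nearest profile was sought among 1237 others. Distance was Euclidean over the 5 libraries, on mean-centred log2 of TMM-scaled CPM plus 1. The nearest gene to CASC9 was ENSG00000290657 on chromosome 17 (distance 0.57; 1, 62, 112, 130 and 156 reads), and to UCA1 it was LINC00839 on chromosome 10 (0.15; 1 to 14 reads). NEAT1 was nearest to ENSG00000246465 on chromosome 16 (0.08; 2 to 16 reads). MALAT1 was nearest to ENSG00000291113 on chromosome 5 (0.19; 51, 132, 137, 140 and 156 reads). The added 1 shrinks the differences of genes with few reads, such as those nearest to UCA1 and NEAT1, so these do not match in fold: the slopes were 2.88 for LINC00839 beside 2.13 for UCA1, and 2.42 for ENSG00000246465 beside 1.76 for NEAT1. None of the 4 lies on the chromosome of its partner.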

How the data were processed

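For each library the authors deposited transcript identifiers with a length in bases and an estimated count of reads. All but 2 counts were whole, and those 2 were rounded. The submitters' processing notes name minimap2 2.24, Salmon 1.9.0 and GRCh38, with no roles; the annotation release and any use of strand are not given in the sources used here. Double entries of 161 identifiers were summed. Identifiers were paired with GENCODE v44 genes, which took in 98.6% of human reads, and counts were summed per gene.

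Library totals were 2932250 to 4058751 reads. With no molecular identifiers given, PCR copies count as reads, and 95% intervals and the limit of 3 reads for a count of 0 cover counting error only. The slope on the HCC827 mass fraction was fitted with edgeR 4.0.16 (R 4.3.3) by the quasi-likelihood test with TMM scaling and a filter of 10 reads in 2 libraries, for genes and for transcripts, and was tested on simulated data. Standard errors were taken as slope over root F. Alternatives used DESeq2 1.42.0, limma 3.58.1, other scalings, filters and mixing shares, and each library left out.

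The 10 genes and all lists were chosen with earlier results of these data known. Genes named are the 10, their neighbours, the 5 steepest calls in each direction and the 3 genes with most reads of the wider list, the NRF2 targets reported, RNAs without a poly(A) tail, and nearest profiles; CYTOR, MEG8, MEG9 and genes of the marker lists were named after their values were seen. One neighbour, one gene of the NRF2 list and one transcript end are not reported here.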

Additional observations from a re-analysis of the deposited data

How the results depend on the processing

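No paired analysis was possible because each mixing ratio had 1 library. Of 89 recomputed slopes of the 7 tested main genes, 86 kept their direction and side of the threshold. CASC9 lost its call in the DESeq2 Wald test (slope 4.50), LUCAT1 turned to −0.044 with library totals and MIR31HG to 0.22 without 0:100 (−0.74 to 0.22 over single libraries left out). Neither was called. CASC9 could not be fitted with at least 10 reads in every library, a filter that its 100:0 library fails. Leaving out 1 library gave 5 to 5 calls among these genes, 15 to 20 on the wider list, 4067 to 5859 over all genes (fewest without 0:100), 6287 to 10171 transcripts (6626 without 100:0) and 18 to 27 transcripts of the main genes (28 with all libraries, 18 without 100:0). For transcript usage it gave 4 to 20 genes, beside 30 with all libraries and 66 with the gene-level F test. At least 10 reads in every library left 13 calls on the wider list. Log2 ratios of the pure libraries with library totals were 1.48 for MALAT1, 1.69 for NEAT1, 1.97 for UCA1 and 5.40 for CASC9 (4.08 with a floor of 10 reads). The estimated HCC827 share took the ratio to the linear mixture outside its counting interval at the mass share for MALAT1 (1.12 in 75:25 and 1.13 in 50:50), UCA1 (1.07 in 75:25) and CASC9 (1.29 in 75:25). Depth limits H19, MIR31HG, MEG3 and single PVT1 transcripts.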
